A study of Mus musculus with 24 samples.

Results

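The stroma of the portal area sends signals to the bile duct epithelium, and the comparison described here asks about the opposite direction: what ductal cells, kept behind a membrane, do to the RNA of SCA1+ stromal cells. It rests on 4 of the 24 samples of the series and belongs to its transwell experiment of 12 samples. The members are the 2 samples of SCA1+ stroma (SCA1+Msc cells) that shared a transwell with EpCAM+ ductal cells (DCs) for 15 days and the 2 samples of SCA1+Msc cells grown for 15 days without them. They were placed in groups by their labels, and the comparison was chosen with earlier results of these data known. All 4 came from livers of wild type C57BL/6 mice of 8 to 12 weeks. The cells had been sorted as SCA1+ and negative for EpCAM, CD45, CD11b and CD31, without a gate on PDGFRa, and had been expanded in a mesenchymal medium with serum and WNT3A before co-culture. A cell-impermeable insert carried the DCs, embedded in Matrigel, so that soluble factors could pass while cells could not. Whether the wells of stroma alone received an insert with Matrigel is not given in the sources used here, and an effect of the gel or of the insert cannot be told apart from one of the DCs. Each group has 2 replicates, n = 2 throughout. The stromal cells came from 2 littermates and the replicates are described as biological ones, but which mouse gave which sample is not given, and the samples alone and in co-culture may share mice. Expression is given as TPM, a level per length that sums to the same total in each sample, and levels without a unit are TPM. RNA was measured in bulk, so that a change in the number of cells of a type and a change of RNA per cell cannot be told apart.

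Acute phase proteins are secreted in quantity during injury and inflammation, and IL-6, acting through gp130 and STAT3, and NF-kB, acting downstream of TNF, IL-1 and Toll-like receptors, are the best known inducers of their genes. In the liver hepatocytes make most of them, but fibroblasts also express members such as Saa3, Lcn2, Hp and the SerpinA3 inhibitors of serine proteases. Activated portal fibroblasts and stellate cells secrete the chemokines CCL2 and CCL7, which recruit monocytes, and the metallothioneins MT1 and MT2, small proteins that bind zinc and copper, are induced by metals, glucocorticoids and IL-6.

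Promoters of 4 genes that rose in co-culture are shown for the motifs of these pathways that they hold. The 250 bases before the start site were taken from RefSeq (GRCm38.p6), in which 11 of the 13 genes past the threshold with a symbol other than Gm or Mir have a promoter. Capitals mark matches on either strand to the STAT motif TTCNNNGAA, the C/EBP motif TTGCNNAA, the NF-kB consensus, the AP-1 motif TGANTCA, the hypoxia response core ACGTG and the metal response core TGCGCNC or TGCACNC, with overlapping matches merged. Each sequence is on the plus strand and reads 5′ to 3′, at chr12:104214294-104214543, chr5:30012864-30013113, chr8:94178839-94179088 and chr8:94172368-94172617.
Serpina3f: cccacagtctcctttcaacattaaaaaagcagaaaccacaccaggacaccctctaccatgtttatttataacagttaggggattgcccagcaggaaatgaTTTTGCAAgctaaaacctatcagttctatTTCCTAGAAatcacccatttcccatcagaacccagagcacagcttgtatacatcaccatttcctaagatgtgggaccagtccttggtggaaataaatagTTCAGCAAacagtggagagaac
Il6: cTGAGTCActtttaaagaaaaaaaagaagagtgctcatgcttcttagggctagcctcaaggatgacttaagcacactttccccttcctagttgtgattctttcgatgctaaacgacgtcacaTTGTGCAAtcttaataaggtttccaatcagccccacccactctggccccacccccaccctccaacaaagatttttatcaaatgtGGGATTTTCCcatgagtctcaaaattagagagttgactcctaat
Mt1: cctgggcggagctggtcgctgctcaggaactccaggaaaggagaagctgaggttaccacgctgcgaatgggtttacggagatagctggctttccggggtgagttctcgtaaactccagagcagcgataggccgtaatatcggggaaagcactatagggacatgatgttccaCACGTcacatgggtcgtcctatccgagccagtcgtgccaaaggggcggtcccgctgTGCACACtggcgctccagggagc
Mt2: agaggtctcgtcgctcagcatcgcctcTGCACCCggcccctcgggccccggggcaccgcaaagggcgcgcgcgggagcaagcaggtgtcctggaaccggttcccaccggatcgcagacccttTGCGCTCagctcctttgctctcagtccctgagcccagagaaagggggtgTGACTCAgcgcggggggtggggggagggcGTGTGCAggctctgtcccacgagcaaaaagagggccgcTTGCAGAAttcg

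The printed promoter of Serpina3f holds a STAT match that begins 121 bases before the start site, and C/EBP matches at 150 and 22 bases. RefSeq gives a second start site for Serpina3f, from which the STAT match lies at 210 bases and the C/EBP matches at 239 and 111 bases. That of Il6 holds an AP-1 match at 249 bases, a C/EBP match at 128 bases and an NF-kB match at 44 bases. The metal response core occurs at 23 bases in Mt1 and at 223, 128 and 50 bases in Mt2, and these genes lie next to each other on chromosome 8. Mt1 also holds a hypoxia core at 79 bases, and Mt2 an AP-1 match at 79 and a C/EBP match at 12 bases. Among the others that rose, Sod2 holds a STAT match at 185 and an NF-kB match at 83 bases, and Ier3 an NF-kB match at 92, a hypoxia core at 202 and a metal core at 30 bases. Saa4 holds C/EBP matches at 245 and 52 bases, and the promoters of Mif and Tpi1 match none of the motifs. Of the genes that fell, Adamts13 holds a metal core at 110 bases and Cldn3 a hypoxia core at 93 bases. In all 32851 promoters of RefSeq the STAT motif was found in 7.02%, C/EBP in 9.56%, NF-kB in 7.25%, AP-1 in 6.75%, the hypoxia core in 16.6% and the metal core in 21.4%. A match is a run of letters and was not tested for binding.

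Depth and identity of the 4 libraries were checked first. Reads on genes, recovered from the steps between low values, numbered 21.8 M to 27.2 M, and replicates correlated at a Spearman's rho of 0.898 alone and 0.900 in co-culture across genes. Mesenchymal genes were high in every library, with Dcn at 18856 to 25384 TPM and Col3a1 at 7852 to 8283 TPM, and Ly6a, which encodes SCA1, stood at 957 to 1209 TPM. The cell type field of these labels adds the word ductal to the mesenchymal SCA1+ identity that their titles give. Epcam, a defining gene of the ducts, was at 0 to 7.28 TPM, against 1986 and 2136 TPM in the co-cultured organoids. Summed over the 15 ductal markers, the libraries held 248 and 263 TPM alone and 574 and 286 TPM in co-culture. The cause of the higher sum in co-cultured replicate 1 was not tested. The DCs and organoids carry the X-inactivation RNA Xist, at 59.0 and 64.1 TPM in the co-cultured organoids, and list the Y-linked Ddx3y at 0, whereas the co-cultured stroma had Xist at 0 and 0.0309 TPM (0 and 4 reads) and Ddx3y at 52.0 and 43.5 TPM. Organoids and stroma thus came from mice of different sex, and RNA of the organoids was at or near 0 in the stroma. Endothelial RNA was present in all 4 libraries, with Pecam1 at 45.8 and 82.0 alone and 96.1 and 61.5 in co-culture, although CD31+ cells had been sorted away, and Ptprc, which encodes CD45, was listed at 0 in all of them. Co-cultured replicate 1 also stood apart by RNA of hepatocyte genes. Alb stood at 9.24 and 2.09 TPM alone and 305 and 0.0591 TPM in co-culture, and Apoa1 at 47.9 TPM in that library and 0 in the other 3, while Cyp3a11, Tat and Cps1 were listed at 0 in all 4. Summed over the 10 hepatocyte markers the libraries held 109 and 149 TPM alone and 484 and 107 TPM in co-culture.

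Co-cultured stroma differed from stroma alone in few genes past the threshold, and the 10 named rises included Serpina3f and haptoglobin of the acute phase, the cytokine Il6 and both metallothioneins. Of 18136 genes tested, 23 passed an adjusted p of 0.05 with limma, 17 higher (0.0937% of the genes tested) and 6 lower (0.0331%), and the genes tested had a median fold change of 0 on the log2 scale. An unadjusted p under 0.05 was reached by 621 genes higher (3.42%) and 642 lower (3.54%) in co-culture. Both co-cultured samples lay above both samples alone for 14.9% of the genes and below both for 19%. These calls hang on each library: without replicate 1 of the stroma alone 0 were left (1111 at an unadjusted p under 0.05), without its replicate 2 there were 3, without co-cultured replicate 1 there were 0 (996 unadjusted) and without co-cultured replicate 2 there were 28, of which 8 are among the 23. They also drew on the spread within the other groups of the experiment, since a fit of the 4 samples alone called 0 genes, with 1515 at an unadjusted p under 0.05. An exact permutation test of 2 against 2 samples cannot go below p = 0.333, so that no single gene could pass by that route.

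Serpina3f (ENSMUSG00000066363.12, chr12:104214544-104221129, plus strand), a SerpinA3 protease inhibitor of the acute phase, had the largest fold among the named genes past the threshold. It had been given as the marker of this comparison with earlier results of these data known, so that its call and rank are not independent of them. It stood at 1.48 and 1.01 TPM alone and 19.4 and 24.0 TPM in co-culture, on 26 and 17 reads alone and 281 and 396 in co-culture. Both co-cultured samples thus lay above both samples alone, the mean was 17.4 times higher, and the log2 fold change of TPM + 1 was 3.34 ± 0.32 (SE, 95% interval 2.62 to 4.06, adjusted p = 0.0107). Freshly sorted SCA1+ stroma carried it at 169.9 and 117 TPM, above either culture. The co-cultured organoids listed it at 0. SerpinA3 genes form a cluster of near-identical copies, and short reads may have been split between them or lost by the filter on mapping quality, which makes its level uncertain.

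Il6 (ENSMUSG00000025746.11, chr5:30013114-30019981) encodes the cytokine that drives the acute phase response. It stood at 16.2 and 22.7 TPM alone and 76.8 and 59.9 TPM in co-culture, a 3.52-fold rise with no overlap between the groups (log2 fold change 1.77 ± 0.21, adjusted p = 0.0304). Co-cultured organoids held it at 0 and 0.0546 TPM, and fresh stroma carried 2466 and 2159.8 TPM, far above either culture. Hp (ENSMUSG00000031722.10, chr8:109575128-109579172), which encodes haptoglobin, the plasma protein that captures free hemoglobin, rose 3.12-fold from 265 ± 59.3 to 828 ± 170.5 TPM (SD), with samples at 223 and 307 alone and 948 and 707 in co-culture (adjusted p = 0.0445). Saa4, a constitutive member of the serum amyloid A family, was at 3.55 and 4.80 TPM alone and 20.7 and 17.9 TPM in co-culture, a rise of 4.62 times (adjusted p = 0.0382). Hepatocytes also make haptoglobin and serum amyloid A, and the part of their RNA in these values was not tested.

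Metallothionein genes rose together. Mt2 (ENSMUSG00000031762.7) was at 276 and 421 TPM alone and 1025 and 1033 TPM in co-culture (log2 fold change 1.59 ± 0.22, adjusted p = 0.0395), and Mt1 (ENSMUSG00000031765.8) at 1440.3 and 1777 TPM alone and 3818 and 3747 TPM in co-culture (1.24 ± 0.16, adjusted p = 0.0382). For both genes each co-cultured sample lay above each sample alone. A non-coding gene, Gm45774, overlaps the exons of Mt2, and without strand their reads cannot be separated.

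Sod2 (ENSMUSG00000006818.5, chr17:13006846-13040063) encodes the superoxide dismutase of mitochondria and is a classic target of NF-kB. It stood at 223 and 202 TPM alone and 547 and 499 TPM in co-culture and rose 2.46-fold (log2 fold change 1.30 ± 0.13, adjusted p = 0.0107). Ier3, an immediate early gene that restrains cell death, was at 236 and 258 TPM alone and 444 and 465 TPM in co-culture, a rise of 1.84 times (adjusted p = 0.0107). Mif, a cytokine that counteracts glucocorticoids, was at 264 and 285 TPM alone and 677 and 529.8 TPM in co-culture (adjusted p = 0.0382), and the glycolytic enzyme Tpi1 at 524 and 543 TPM alone and 1045 and 860.2 TPM in co-culture (adjusted p = 0.0395). Tpi1 shares exonic sequence with Spsb2.

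**Figure D1:**
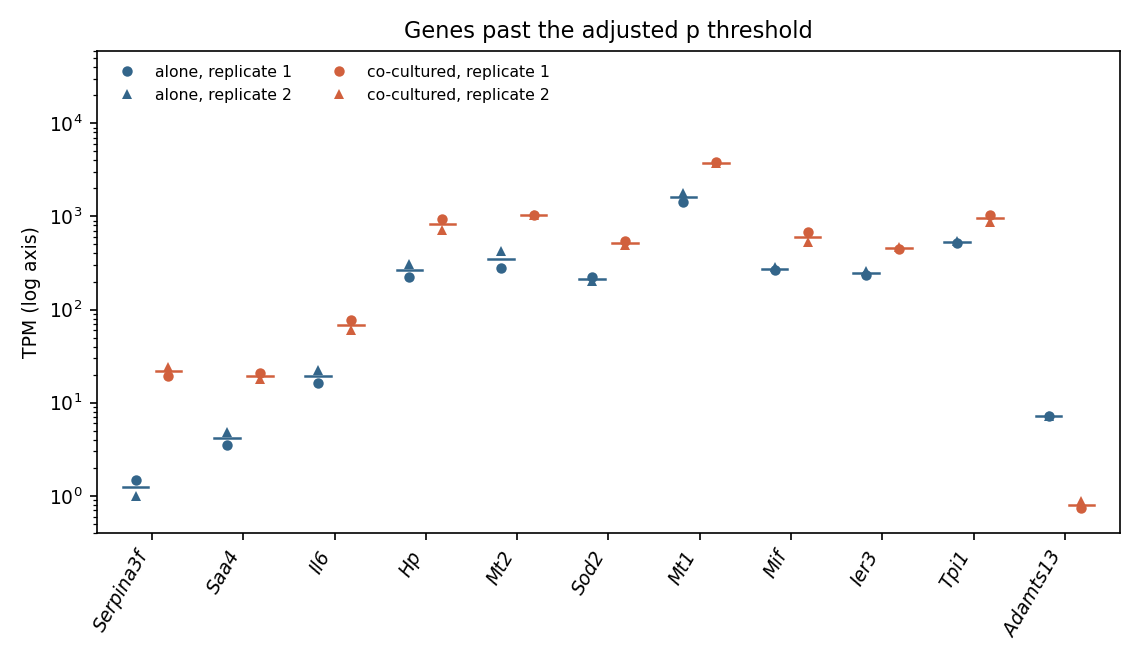
TPM on a log axis of the 11 named genes past the adjusted p threshold in SCA1+ stroma alone (blue) and co-cultured with ductal cells (orange), with circles for replicate 1, triangles for replicate 2 and bars for group means. Serpina3f stood at 1.48 and 1.01 TPM alone and 19.4 and 24.0 TPM in co-culture, and Adamts13 is the named gene that moved down.

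Adamts13 (ENSMUSG00000014852.16, chr2:26973416-27009628) was the only fall that the naming rule kept. It encodes the protease that cleaves von Willebrand factor, which stellate cells make in the liver. Its samples stood at 7.20 and 7.14 TPM alone and 0.738 and 0.872 TPM in co-culture, on 272 and 259 reads alone and 23 and 31 in co-culture, and the mean was 8.91 times lower in co-culture (log2 fold change -2.18 ± 0.29, adjusted p = 0.0382). Fresh stroma held 16.1 and 12.4 TPM.

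Beyond the rule, which asked for a mean of at least 5 TPM and left out numbered symbols, 12 further genes passed the threshold, and they are named here after their values were seen. Cldn3, a tight junction protein of the bile duct, stood at 5.28 and 3.78 TPM alone and 0 and 0.330 TPM in co-culture and fell (51 and 35 reads alone and 0 and 3 in co-culture, adjusted p = 0.0107), and it shares exonic sequence with Wbscr25. Lyve1, a receptor for hyaluronan on sinusoidal and lymphatic endothelium, was listed at 0 in both samples alone and stood at 3.57 and 2.75 TPM in co-culture, on 66 and 58 reads, which is at least 23.1-fold higher against a floor of 3 reads per library (adjusted p = 0.0395). Stab2 and Clec4g, other genes of the sinusoid, were at or near 0 in co-culture, and the 14 endothelial markers summed to 207 and 315 TPM alone and 375 and 240.0 TPM in co-culture, whose part in the value of Lyve1 was not tested. Gm10309 was listed at 0 alone and held 80 and 109 reads in co-culture, at least 34.7-fold higher, and Gm29100, an antisense transcript over Twist2, went from 99 and 88 reads to 1 and 0. The remaining 8 rest on low counts: Mir186, Gm24095 and Gm24325 on at most 3 reads in any sample, Gm11216, Gm11474 and Gm11629 on at most 10, Gm44716 on 14 and 15, and Gm42575 on 31 and 78.

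The rule filled its 15 rises with genes that did not pass the adjusted test. Serpinb2, an inhibitor of plasminogen activators, stood at 28.8 and 13.4 TPM alone and 199.5 and 130.4 TPM in co-culture (adjusted p = 0.0809). Tnfrsf9, the receptor 4-1BB and a target of NF-kB, was at 6.27 and 1.95 alone and 92.1 and 25.5 in co-culture (adjusted p = 0.379). Sprr2e, a cornified envelope protein that NF-kB and STAT3 can induce in bile ducts, was listed at 0 in both samples alone and held 42.0 and 7.71 TPM in co-culture (172 and 36 reads, adjusted p = 0.0802), and it has near-identical neighbors. Serpinb2 shares exonic sequence with Serpinb10. In each of the 3, replicate 1 of the co-culture was the highest sample. Mir487b and Mir5125 complete the 15 rises and rest on at most 13 reads. On the side of the falls, 14 genes fill the list without passing, among them Ccl12, Fcgr3, Myoc, Angptl7, Rab38, Tmem136, Yjefn3 and Lrrc17, the last at 12.6 and 11.1 TPM alone and 1.58 and 4.11 TPM in co-culture (adjusted p = 0.120), together with 6 small RNAs on at most 15 reads (Snord37, Snord73a, Snora33, Mir1898, Mir151 and Mir26b).

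SerpinA3 and acute phase genes had the highest median of the 34 gene lists with both co-cultured samples, but not without replicate 1 of the co-culture, where it was 0.17 beside 0.55 for glycolysis and hypoxia response genes. The list holds Serpina3f, the given marker of this comparison, and was chosen with earlier results of these data known. Its rank is therefore not independent of those results. In each list, members named beyond those past the threshold and the 4 most abundant were chosen after their values were seen. Of 26 members, 2 rose past the adjusted threshold (Serpina3f and Hp), 10 were higher and none lower at an unadjusted p under 0.05, and 13 lay above both samples alone in both co-cultured samples against none below. Over all genes tested these shares were 3.42% higher and 3.54% lower at an unadjusted p under 0.05, 14.9% above and 19% below. The median log2 fold change was 1.18, beside 0 over all genes tested. Saa3, the serum amyloid of fibroblasts and macrophages, stood at 2218 and 3199.8 TPM alone and 13414 and 6582 TPM in co-culture (log2 fold change 1.82 ± 0.38, adjusted p = 0.176). Lcn2, which sequesters bacterial siderophores, was at 529.7 and 570.2 alone and 4704 and 1846 in co-culture (log2 fold change 2.42, adjusted p = 0.207). For both genes the groups do not overlap, and replicate 1 of the co-culture was the highest sample. Organoids carried Lcn2 at 16300.0 and 10825 TPM in co-culture, with Xist at 59.0 and 64.1 TPM. By Xist, at 0 and 0.0309 TPM in the co-cultured stroma, RNA of the organoids was at or near 0 there. Its part in the level of Lcn2 was not tested.

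Other members also stood above both samples alone in both co-cultured samples. Serpina3g was at 165 and 148 TPM alone and 314 and 411 TPM in co-culture (adjusted p = 0.463), Serpina3i at 47.4 and 41.9 alone and 112 and 91.5 in co-culture and Cp, the ferroxidase ceruloplasmin, at 57.6 and 55.6 alone and 115 and 85.4 in co-culture. In contrast, Serpina3n, the most abundant SerpinA3 gene here, stood at 5212 and 6119.9 TPM alone and 4484 and 5942 TPM in co-culture, a log2 fold change of -0.13, and the groups overlap. Steap4, a metalloreductase, was at 384 and 426 TPM alone and 580.4 and 741 TPM in co-culture, and Lbp, which binds lipopolysaccharide, at 320.0 and 261 alone and 349 and 377 in co-culture.

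The list also holds genes that mainly hepatocytes express, and some of these followed the library with albumin. Fga stood at 6.58 and 0 TPM alone and 70.0 and 0.0460 TPM in co-culture, Fgb at 1.30 and 0.428 alone and 30.1 and 0 in co-culture, Fgg at 0.498 and 1.69 alone and 33.8 and 0 in co-culture, Orm1 at 1.68 and 0.175 alone and 23.4 and 0 in co-culture, Orm2 at 0 and 0 alone and 19.2 and 0 in co-culture and Hpx at 3.22 and 4.80 alone and 31.8 and 0.0924 in co-culture. Each was high only in co-cultured replicate 1, where Alb was at 305 TPM, and at or near 0 in replicate 2. Apcs also stood above the mean of the stroma alone in replicate 1, by 2.6 in log2(TPM + 1). Itih3, Itih4, Orm3 and Crp stood below it in replicate 1, with differences of -1.06, -0.64, -0.50 and -0.21. Without replicate 1 of the co-culture the median of the list was 0.17 with 9 members higher and 3 lower at an unadjusted p under 0.05, and without replicate 2 it was 1.29. The part of hepatocyte RNA in the median of the list was not tested.

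**Figure D2:**
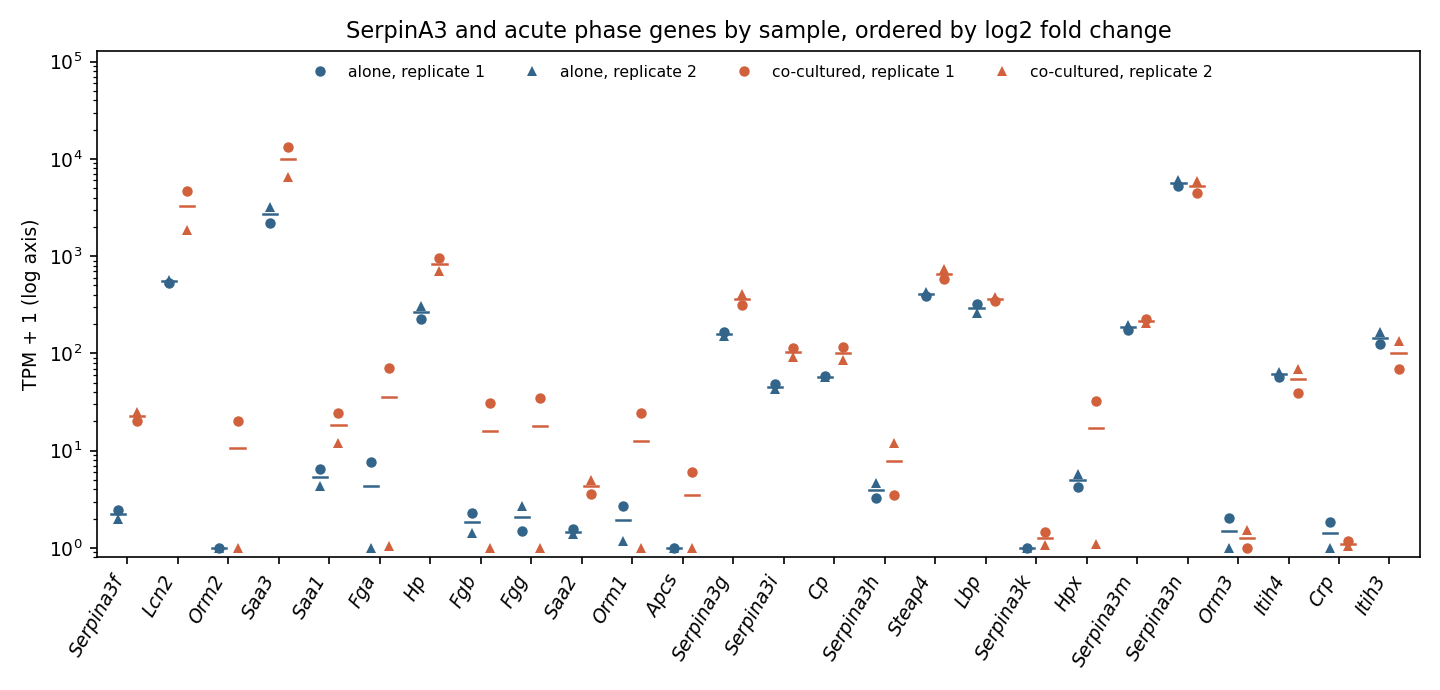
TPM + 1 on a log axis of the 26 SerpinA3 and acute phase genes in each sample of SCA1+ stroma alone (blue) and co-cultured (orange), ordered by log2 fold change from Serpina3f at 3.34 to Itih3 at -0.57. Bars are group means, and Fga, Fgb, Fgg, Orm1, Orm2 and Apcs are high in co-cultured replicate 1 (circle) and low in replicate 2 (triangle).

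NF-kB induces its own inhibitors. Of 27 pathway and feedback members, 1 rose past the threshold (Sod2), 6 were higher and none lower at an unadjusted p under 0.05 (3.42% and 3.54% of all genes), and the median was 0.25. Tnfaip3, the deubiquitinase A20, stood at 2.38 and 2.78 TPM alone and 11.1 and 6.31 TPM in co-culture (log2 fold change 1.40, adjusted p = 0.115), Nfkbiz at 17.9 and 14.7 alone and 33.5 and 33.1 in co-culture (0.99, adjusted p = 0.115) and Nfkbia at 278 and 314 alone and 379.6 and 454 in co-culture (0.49, adjusted p = 0.464). The groups do not overlap for these 3. The subunit Nfkb2 was at 66.7 and 54.5 alone and 87.3 and 93.2 in co-culture, the adhesion molecule Vcam1 at 148 and 141 alone and 206 and 207 in co-culture and Icam1 at 104 and 132 alone and 101 and 144 in co-culture, while Rela, the main activating subunit, stood at 204 and 214 alone and 177 and 194 in co-culture and the receptor Tnfrsf1a at 493 and 552 alone and 481 and 509.8 in co-culture. Transcripts of the inducers themselves were near 0 in the stroma: Il1a and Il1b were listed at 0 in all 4 samples and Tnf in 3.

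JAK-STAT3 cytokines, receptors and feedback genes had a median of -0.02 over 25 members tested, 1 of which rose past the threshold (Il6). At an unadjusted p under 0.05, 3 were higher and 1 lower (3.42% and 3.54% of all genes). Both co-cultured samples lay above both samples alone for 9 members and below for 6 (14.9% and 19% of all genes). Lif, another ligand of gp130, stood at 2.64 and 2.28 TPM alone and 5.92 and 4.11 TPM in co-culture (log2 fold change 0.78, adjusted p = 0.517) and Il11 at 2.20 and 2.83 alone and 1.96 and 0.275 in co-culture. Socs3, the feedback inhibitor that STAT3 induces, was at 304 and 315 TPM alone and 229 and 295 TPM in co-culture, Stat3 at 98.3 and 100.4 alone and 99.0 and 98.5 in co-culture and Osmr at 214 and 222 alone and 208 and 219 in co-culture, and Il6st, which encodes gp130, at 691 and 637 alone and 520.3 and 554 in co-culture (adjusted p = 0.584). Socs3 and Il6st were lower in both co-cultured samples than in either sample alone, and Cebpd, an acute phase transcription factor, was higher, at 365 and 371 alone and 427 and 436 in co-culture. Cebpb, of the same C/EBP family, stood 1.175 and 1.18 above the mean of the stroma alone in log2(TPM + 1) in replicates 1 and 2. It did not pass the adjusted test.

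Chemokine ligands were spread widely, from log2 fold changes of -1.85 to 2.47, and none of 27 passed the adjusted test. At an unadjusted p under 0.05, 8 were higher and 3 lower (3.42% and 3.54% of all genes), and the median was 0.29. Ccl2, the monocyte attractant MCP-1, stood at 71.7 and 105 TPM alone and 358 and 660.3 TPM in co-culture (log2 fold change 2.47 ± 0.44, adjusted p = 0.104), and its neighbor Ccl7 at 172 and 249 TPM alone and 598 and 861 TPM in co-culture (1.79 ± 0.30, adjusted p = 0.0810). The eosinophil attractant Ccl11 was at 51.3 and 54.7 alone and 129 and 162 in co-culture and the neutrophil attractant Cxcl5 at 261 and 413 alone and 601 and 836 in co-culture (adjusted p = 0.116). For these 4 genes both co-cultured samples lay above both samples alone, and replicate 2 was the higher of the pair. Cxcl10 and Cxcl2 had the other order. Cxcl10 stood 2.90 and 1.42 above the mean of the stroma alone in log2(TPM + 1) in replicates 1 and 2. For Cxcl2 these differences were 1.44 and 0.93. Fresh stroma held far more Ccl2 (5445 and 5872 TPM) and Ccl7 (6484 and 7006 TPM) than either culture. Cxcl12, the abundant chemokine of mesenchyme, stood at 3798 and 3178 alone and 2903 and 2967 in co-culture (adjusted p = 0.963). Ccl3 was at 2.72 and 2.48 alone and 0 and 0 in co-culture and Ccl4 at 0.395 and 8.02 alone and 0.239 and 0 in co-culture, macrophage chemokines that were at or near 0 in co-culture. C1qa stood at 3.63 and 11.6 alone and 3.34 and 1.60 in co-culture. The summed level of the 13 macrophage and leukocyte markers was 437 and 713 TPM alone and 338 and 337 TPM in co-culture. In the co-cultured organoids the same sum was 2230 and 2340 TPM, with 5 and 8 of the markers at 0, so that it may include RNA of other cells. The part of macrophages and leukocytes in these values was not tested.

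Interferon-stimulated genes stood high in 1 of the 2 co-cultured replicates. None of 42 passed the adjusted test, 4 were higher at an unadjusted p under 0.05 (3.42% of all genes), and the median log2 fold change was 0.30. Isg15, a ubiquitin-like modifier, stood at 32.9 and 31.3 TPM alone and 180.5 and 32.2 TPM in co-culture and Ifit1, a sensor of viral RNA, at 6.23 and 7.77 alone and 41.9 and 9.80 in co-culture. Replicate 1 was high and replicate 2 lay near the samples alone. Against the mean of the stroma alone, 39 of 42 members were higher in replicate 1 (median difference 0.72 in log2(TPM + 1)) and 17 in replicate 2 (-0.06). Usp18, which removes ISG15 from proteins, was above both samples alone in each, at 1.17 and 3.02 alone and 15.5 and 5.06 in co-culture (adjusted p = 0.438).

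**Figure D3:**
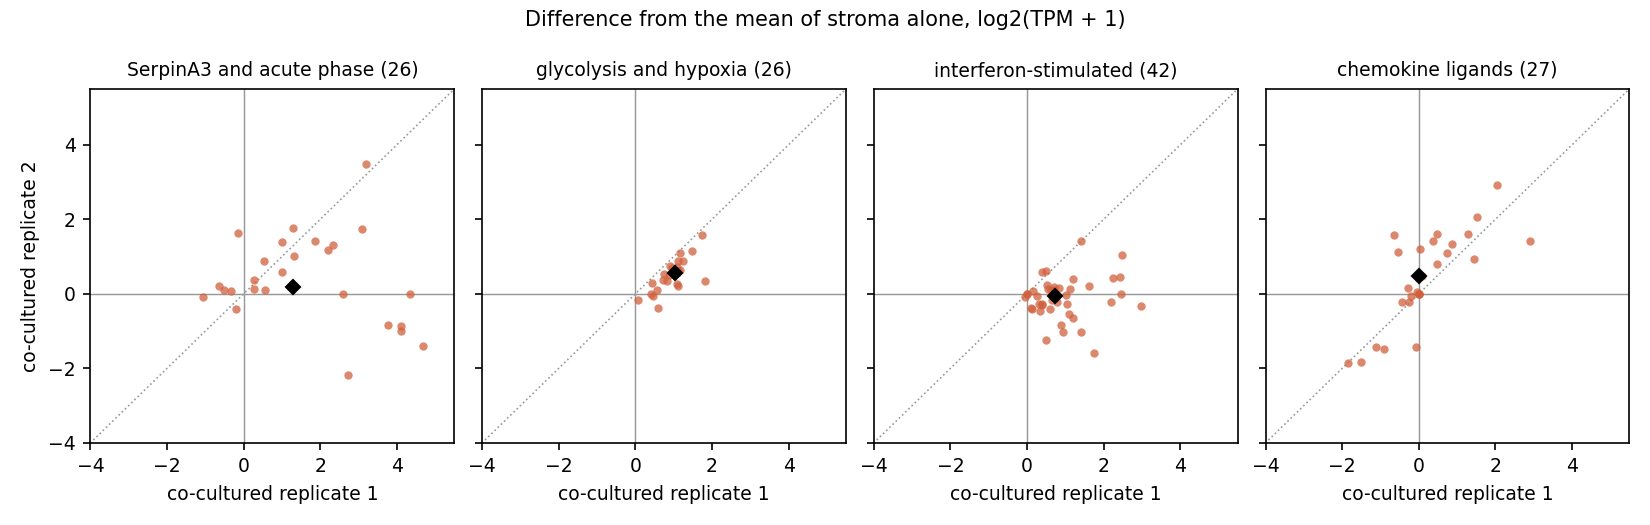
Difference in log2(TPM + 1) of each co-cultured replicate from the mean of the stroma alone for members of 4 lists (orange points, number of genes in parentheses), with the list median as a black diamond and equality as a dotted line. The acute phase medians are 1.29 and 0.17 and the interferon medians 0.72 and -0.06, whereas the glycolysis medians are 1.04 and 0.55.

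Glycolysis and hypoxia response genes had, among the 34 lists, the largest share of members above both samples alone. Of 26 members, 1 rose past the threshold (Tpi1), 17 were higher and none lower at an unadjusted p under 0.05 (3.42% and 3.54% of all genes), and 22 lay above both samples alone in both co-cultured samples, against 14.9% of all genes. The median log2 fold change was 0.82. It was 0.55 without replicate 1 of the co-culture and 1.04 without its replicate 2. The glucose transporter Slc2a1 stood at 157 and 120.4 TPM alone and 293 and 207 TPM in co-culture (log2 fold change 0.83, adjusted p = 0.176). Hexokinase 2, Hk2, which commits glucose to the pathway, was at 4.24 and 2.71 alone and 11.3 and 8.86 in co-culture (1.32, adjusted p = 0.209), Pfkl at 211 and 157 alone and 410.1 and 284 in co-culture and Aldoa at 706 and 706 alone and 1159.6 and 922 in co-culture. Gapdh was at 52.3 and 53.6 alone and 113 and 88.2 in co-culture (0.90, adjusted p = 0.0809), Pkm at 385 and 368 alone and 671 and 479 in co-culture and Ldha, which makes lactate, at 1025 and 898 alone and 1928 and 1469 in co-culture (0.81, adjusted p = 0.113). In all of these, both co-cultured samples were above both alone and replicate 1 above replicate 2. Transcripts that HIF-1 induces outside glycolysis showed the same order. Car9, which acidifies the pericellular space, was at 0.170 and 0.707 alone and 2.33 and 1.62 in co-culture. Bnip3, a mitophagy receptor, was at 31.1 and 28.4 alone and 64.3 and 44.5 in co-culture. Egln3, which marks HIF for destruction, was at 9.69 and 6.27 alone and 30.1 and 10.2 in co-culture. The RNA of Hif1a, which is not counted among these targets, stood at 200.5 and 193 alone and 331 and 286 in co-culture. Gapdh shares exonic sequence with Iffo1. Its listed level lies far below those of Aldoa and Ldha, and a loss of its reads by the filter on mapping quality was not tested. Ndrg1 stood at 58.0 and 72.3 alone and 67.5 and 57.8 in co-culture, with overlapping groups. Angptl4, a lipase inhibitor induced by hypoxia and by fatty acids, was at 70.1 and 67.4 TPM alone and 187 and 176 TPM in co-culture (log2 fold change 1.38, adjusted p = 0.219). Oxidative phosphorylation subunits had a median of -0.08 over 27 members, with none past the adjusted threshold.

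**Figure D4:**
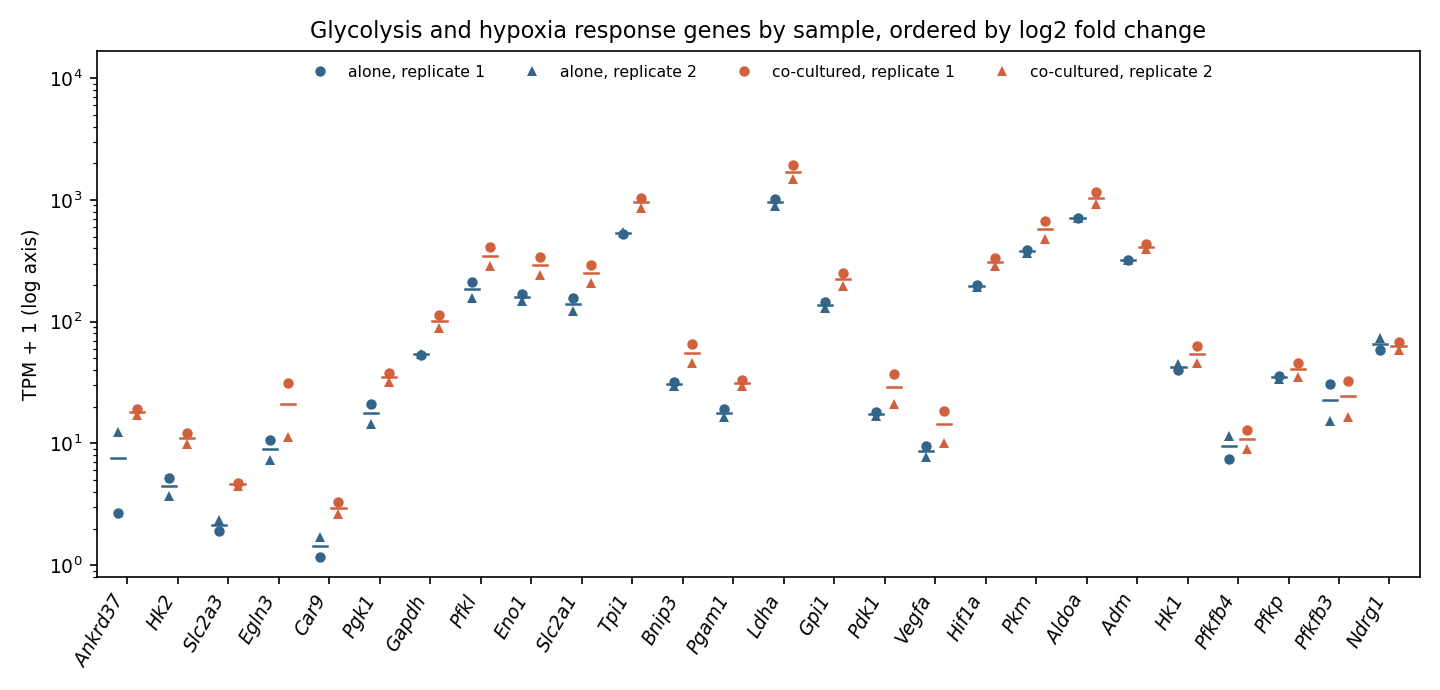
TPM + 1 on a log axis of the 26 glycolysis and hypoxia response genes in each sample of SCA1+ stroma alone (blue) and co-cultured with ductal cells (orange), ordered by log2 fold change, with circles for replicate 1, triangles for replicate 2 and bars for group means. For 22 of 26 genes both orange symbols lie above both blue ones, and replicate 1 of the co-culture is usually the higher.

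In the oxidative stress list, which does not hold Sod2, no gene beside the metallothioneins passed the test. Hmox1, heme oxygenase, stood at 122 and 129 TPM alone and 169 and 137 TPM in co-culture (adjusted p = 0.943) and the NRF2 target Nqo1 at 29.2 and 20.5 alone and 22.8 and 20.7 in co-culture. Glutathione transferase Gstm1 was lower in both co-cultured samples, at 739.5 and 663 TPM alone and 377 and 531 TPM in co-culture (log2 fold change -0.65, adjusted p = 0.289), and so was Gpx3, at 2396 and 2392 alone and 1561 and 2129 in co-culture. The list of 17 had a median of -0.04, with 2 members called higher, both metallothioneins.

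Cell cycle and DNA replication genes are active in dividing cells. None of 37 passed the adjusted test, 6 were higher and none lower at an unadjusted p under 0.05, 20 lay above both samples alone and 3 below (against 14.9% and 19% of all genes, with 3.42% higher and 3.54% lower at an unadjusted p under 0.05), and the median was 0.44. Ccne1, the cyclin that starts S phase, stood at 17.3 and 9.03 TPM alone and 39.7 and 27.0 TPM in co-culture (log2 fold change 1.32, adjusted p = 0.479), and the proliferation antigen Mki67 at 5.16 and 5.16 alone and 10.2 and 8.83 in co-culture (0.77, adjusted p = 0.682). Mcm6, of the replicative helicase, was at 38.4 and 42.7 alone and 31.2 and 35.1 in co-culture, lower in both co-cultured samples. CDK inhibitors and p53 targets had a median of -0.01, with Cdkn1a, which encodes p21, at 384 and 369 alone and 443 and 346 in co-culture.

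Immediate early genes, which report recent stimulation of growth factor and stress kinases, had a median of 0.34 over 24 members. Besides Ier3, which rose, 7 were higher at an unadjusted p under 0.05, beside 3.42% of all genes. Egr1 stood at 167 and 199.9 TPM alone and 284 and 271 TPM in co-culture (log2 fold change 0.60, adjusted p = 0.156) and Junb at 179 and 248 alone and 256 and 298 in co-culture, with no overlap between the groups, and Atf3, of the stress response, at 3.51 and 8.89 alone and 13.3 and 12.0 in co-culture. Fresh cells held Egr1 at 6330.5 and 5673 TPM.

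Matrix and contractile genes define the myofibroblast. None of 24 collagen genes, 36 matrix glycoproteins and proteoglycans, 28 proteases, inhibitors and crosslinkers, 17 smooth muscle genes, 24 TGF-beta genes or 20 YAP and SRF targets passed the adjusted test, and their medians ran from -0.08 to 0.05. Col1a1, the main fibrillar collagen, stood at 5123 and 4681 TPM alone and 6803 and 5458 TPM in co-culture and Col3a1 at 8217 and 7956 alone and 8283 and 7852 in co-culture, and Acta2, the actin of myofibroblasts, at 3072 and 2828 TPM alone and 3416 and 3154 TPM in co-culture. The ratio of the means, co-cultured over alone, was 1.25 for Col1a1 and 1.11 for Acta2. Timp1, an inhibitor of metalloproteinases and a STAT3 and AP-1 target, was at 1469 and 1882 TPM alone and 3667 and 3056 TPM in co-culture (log2 fold change 1.01, adjusted p = 0.237), and Thbs1, which activates latent TGF-beta, at 123 and 154 alone and 254 and 209 in co-culture (0.74, adjusted p = 0.177). In the other direction Thbs2 was at 564 and 480.2 alone and 291 and 332 in co-culture, the proteoglycan Fmod at 1309 and 1106 alone and 675 and 918 in co-culture and Timp3 at 362 and 296 alone and 220.1 and 231 in co-culture, none past the threshold, and Timp3 shares exonic sequence with Syn3. Ctgf, a target of YAP and TGF-beta, stood at 92.4 and 103 alone and 208 and 131 in co-culture.

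Growth factors of the stroma act on the ductal epithelium, and none passed the adjusted test. Of 17 mitogens tested, 6 lay below both samples alone and 2 above, with a median of -0.25, beside 19% and 14.9% of all genes. Gas6, the ligand of the receptors AXL and MERTK, was the most abundant, at 13502 and 11648 TPM alone and 5226 and 8229.6 TPM in co-culture (log2 fold change -0.94 ± 0.17, adjusted p = 0.115). Rspo1, the R-spondin that amplifies Wnt signaling, stood at 194 and 149.7 TPM alone and 99.3 and 119 TPM in co-culture (adjusted p = 0.569), while Rspo3 was at 87.8 and 74.1 alone and 74.8 and 70.6 in co-culture, Hgf at 20.4 and 19.6 alone and 17.8 and 15.1 in co-culture and Igf1 at 120.2 and 73.9 alone and 77.0 and 81.3 in co-culture. Gas6 shares exonic sequence with Tmem255b. Fgf7, the keratinocyte growth factor, stood higher in both co-cultured samples, at 58.3 and 61.7 alone and 78.0 and 87.2 in co-culture (adjusted p = 0.777). The Wnt ligands had a median of -0.23 over 12 tested, with Wnt5a, a ligand of non-canonical Wnt signaling, at 67.3 and 59.3 TPM alone and 30.4 and 39.7 TPM in co-culture (adjusted p = 0.473) and Wnt2 at 4.68 and 4.03 alone and 0.560 and 2.21 in co-culture. Jag1, the Notch ligand, was at 11.9 and 14.2 alone and 9.03 and 8.65 in co-culture (adjusted p = 0.815). Secreted Wnt antagonists, BMP and IGF genes had medians of -0.17, -0.12 and -0.22. Among them the BMP antagonist Chrdl1 stood at 12.4 and 13.6 alone and 5.66 and 4.86 in co-culture (adjusted p = 0.237) and Id1, a target of BMP receptors, at 295 and 267 alone and 179 and 216 in co-culture (adjusted p = 0.502).

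Portal fibroblasts and stellate cells are among the mesenchymal cells of the liver. Of 13 stellate markers, 9 lay below both samples alone and none above, with a median of -0.30, and of 12 portal fibroblast markers 6 lay below and 1 above (median -0.24), beside 19% below and 14.9% above over all genes. None passed the adjusted test. Lrat, which stores retinoids in stellate cells, stood at 24.5 and 21.9 alone and 15.0 and 17.9 in co-culture (adjusted p = 0.847) and Pth1r at 134 and 133 alone and 84.4 and 89.9 in co-culture. The surface protein Cd34 was at 132 and 147 alone and 97.5 and 99.5 in co-culture and Thy1 at 44.2 and 52.9 alone and 53.3 and 61.0 in co-culture, the former lower and the latter higher in both co-cultured samples. Pdgfra was at 274 and 194 alone and 274 and 302 in co-culture and Pdgfrb at 435 and 459 alone and 375 and 410.1 in co-culture (adjusted p = 0.950 and 0.998). Of 18 retinoid genes 7 lay below both samples alone and 2 above, with a median of -0.14, and none passed the adjusted test. Aldh1a1, which makes retinoic acid, was at 1060.3 ± 87.3 TPM alone and 590.3 ± 92.7 TPM in co-culture (SD, log2 fold change -0.85, adjusted p = 0.362) and the binding protein Crabp1 at 46.8 and 49.3 alone and 21.3 and 24.7 in co-culture (-1.04, adjusted p = 0.300), with no overlap between the groups. Rdh10, which makes retinal, stood higher in both co-cultured samples, at 40.8 and 40.0 alone and 58.2 and 61.9 in co-culture (adjusted p = 0.765), and Crabp2 was at 5.42 and 1.23 alone and 5.02 and 3.77 in co-culture, with overlapping groups.

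**Figure D5:**
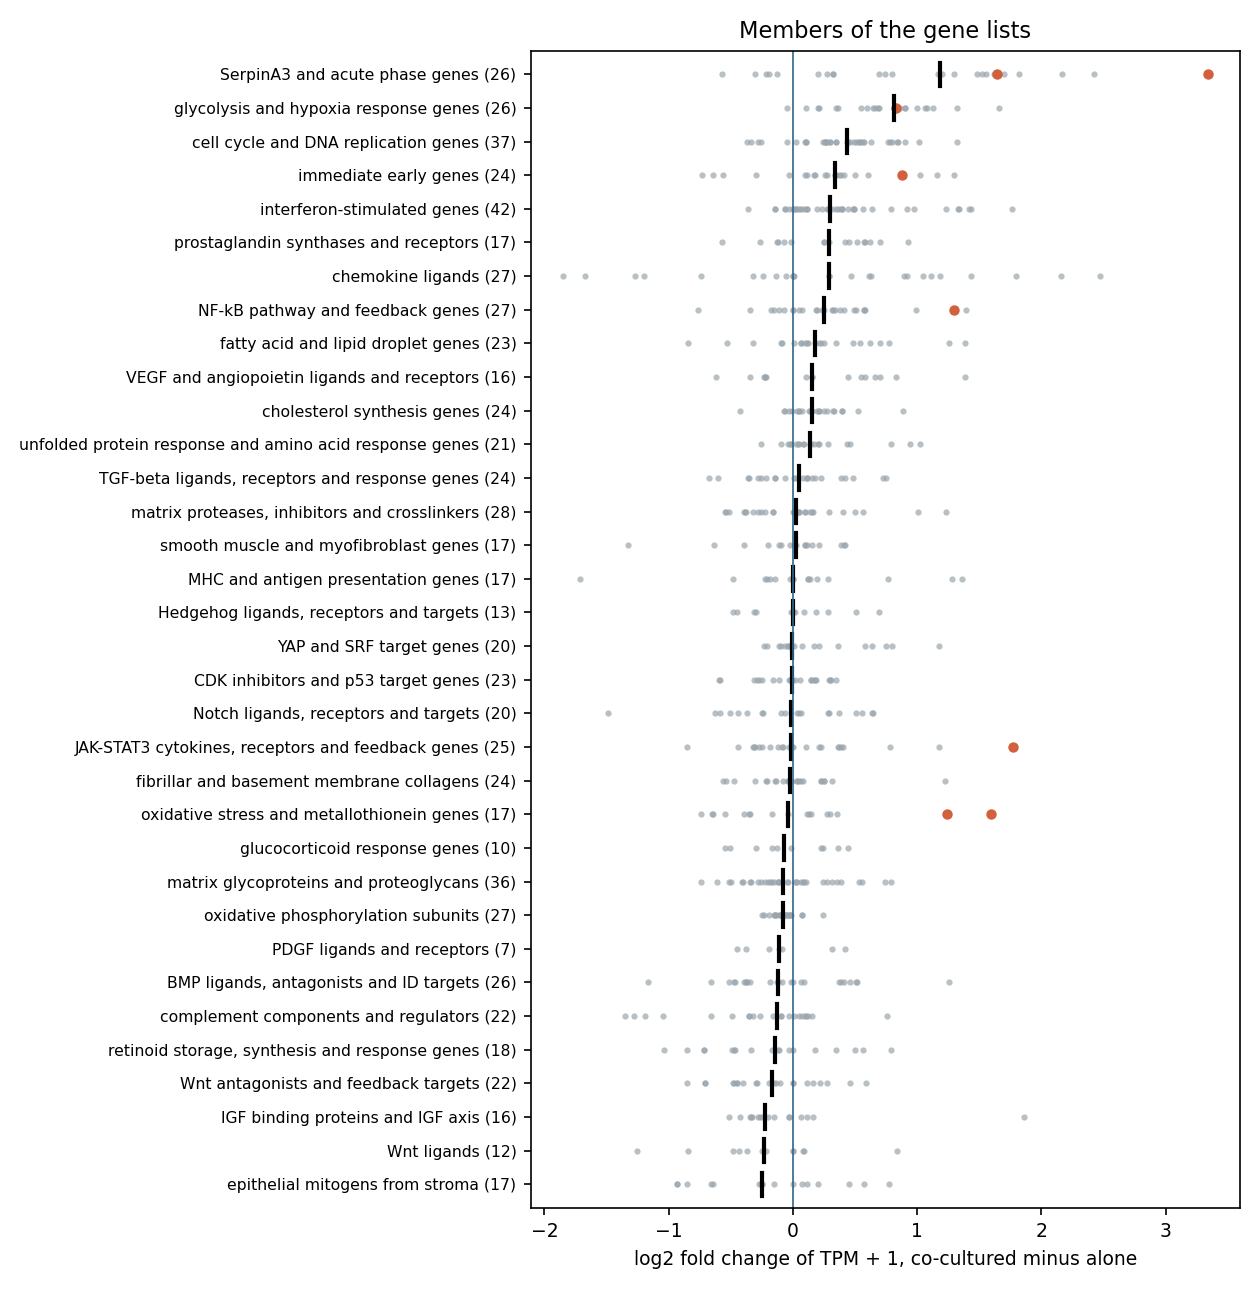
Log2 fold change of TPM + 1, co-cultured minus alone, of every tested member (grey points) of the 34 gene lists, ordered by median (black bars), with members past the adjusted p threshold in orange and the number tested in parentheses. With both replicates the medians run from 1.18 for SerpinA3 and acute phase genes to -0.25 for epithelial mitogens, and the orange points lie in 6 lists.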

How the data were processed

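RNA was amplified by Smart-seq2 and sequenced in single reads. The authors mapped reads with STAR (2.5.0a) to GRCm38, filtered them by mapping quality, counted them over exons with featureCounts (1.6.0 in the submitters' processing notes), without use of strand being stated, and deposited RPKM values. Here each RPKM column was scaled to a sum of 1000000 (TPM) and log2(TPM + 1) was fitted with limma (3.58.1, R 4.3.3; moderated test with trend) over the 12 transwell samples in 6 groups, which share 1 estimate of the spread. Genes needed 1 TPM in 2 samples, and p-values were adjusted by Benjamini and Hochberg with a threshold of 0.05. The fit was tested on simulated data. Tables and figures used Python 3.11.15, pandas 2.3.3, numpy 2.4.6 and matplotlib 3.10.9.

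Reads were recovered from the steps of low RPKM values, and a count of 0 was set against a floor of 3 reads, which covers counting error only. Of the 49568 rows, 26 carry a date in place of a symbol and were not named. The homeostasis samples, in another table, were not used here. The members and gene lists were chosen with earlier results of these data known. Named genes were Serpina3f, the 15 largest rises and falls past the threshold with a mean of at least 5 TPM and no overlap (filled from an unadjusted p under 0.05), and in each list up to 6 members past the threshold and 4 by level. Alternatives covered the pseudocount, filters, scaling, samples in the fit, a replicate block and each replicate left out, and a minimum of 10 recovered reads was added after the data were seen. Samples with the same replicate number did not deviate together (r = 0.03 over 18136 genes), and the numbers were not taken as pairs. This correlation cannot show that samples with equal numbers come from different mice.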

Additional observations from a re-analysis of the deposited data

How the results depend on the processing

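With 2 samples a group the number of called genes (23, of which 17 were higher and 6 lower in co-culture) moved with the fit. A pseudocount of 0.1 gave 40 calls, 15 of them lower, no filter on low values gave 51 (32 higher, 19 lower), a minimum of 5 TPM gave 15 (2 lower) and limma without the trend gave 34 (15 lower). Fitting the 6 stroma samples gave 23 calls, 10 of them lower and 3 shared with the 23, and fitting the 4 samples of day 15 gave 0 calls, 0 higher and 0 lower, with 1515 genes at an unadjusted p under 0.05. With the replicate number as a block, 0 genes were called (0 higher, 0 lower), with 1188 unadjusted. Whether equal numbers mark pairs is not given. Leaving out each replicate in turn gave 0 to 28 calls, 0 to 23 higher and 0 to 5 lower: 0 without replicate 1 of the stroma alone (1111 unadjusted), 3 without its replicate 2, 0 without replicate 1 of the co-culture (996 unadjusted) and 28 without its replicate 2. The causes were not tested. RPKM as deposited, quantile normalization, median ratio scaling and a minimum of 10 recovered reads, the last chosen after seeing the data, gave 19, 20, 23 and 19 calls. Over the named genes and these settings, 2378 values kept their direction and side of the threshold, 85 lost the call and 3 gained it. In 77 the fold change of a gene without a call changed sign, and no called gene reversed. The 2378 include genes without a call that stayed without one. Of the named genes past the threshold, Serpina3f and Sod2 kept the call in 9 of 15 other settings. Il6, Tpi1, Mif and Ier3 kept it in 8, Adamts13 and Saa4 in 7, Mt2 in 6, and Mt1 and Hp in 5.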

Other observations

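Further gene groups of the co-cultured SCA1+ stroma held no member past the adjusted threshold, and members beyond the 4 most abundant of a list are named after their values were seen. MHC and antigen presentation genes had a median log2 fold change of 0.00 over 17 tested. Cd74, the invariant chain of MHC class II, stood at 5.27 and 4.72 TPM alone and 19.4 and 9.33 TPM in co-culture (adjusted p = 0.554) and H2-K1, of class I, at 450.4 and 475 alone and 609 and 518 in co-culture (adjusted p = 0.517), with no overlap between the groups. Complement genes had a median of -0.13 over 22 tested, and C3, the most abundant component named, was at 4344 and 3623 TPM alone and 4352 and 3883 TPM in co-culture, with overlapping groups. The activator Cfb stood at 9.64 and 14.6 TPM alone and 23.5 and 18.3 TPM in co-culture (adjusted p = 0.664). Of 17 prostaglandin genes 6 lay above both samples alone and 1 below (against 14.9% and 19% of all genes), with a median of 0.29. Ptges, which makes prostaglandin E, was at 66.6 and 46.9 TPM alone and 76.5 and 91.0 TPM in co-culture and the inducible cyclooxygenase Ptgs2 at 3.90 and 1.75 alone and 4.10 and 4.87 in co-culture.

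Metabolic and stress programs outside glycolysis had small medians. Cholesterol synthesis genes had one of 0.15 over 24 tested, with 11 above both samples alone and 2 below (against 14.9% and 19% of all genes), and Hmgcs1, an early enzyme of the pathway, stood at 188 and 167 TPM alone and 197 and 212 TPM in co-culture. Fatty acid and lipid droplet genes had a median of 0.17 and the unfolded protein and amino acid response one of 0.14. In the latter Trib3, a target of ATF4 and CHOP, was at 33.3 and 29.5 TPM alone and 55.2 and 54.8 TPM in co-culture (adjusted p = 0.583), whereas the chaperone Hspa5 was at 834 and 815 alone and 794 and 838 in co-culture, with overlapping groups. The lactate exporter Slc16a3, a target of HIF-1, stood at 32.1 and 34.7 TPM alone and 121 and 83.2 TPM in co-culture (log2 fold change 1.56, adjusted p = 0.116). Glucocorticoid response genes had a median of -0.07 over 10 tested, with Tsc22d3, the leucine zipper that glucocorticoids induce, at 104 and 70.5 TPM alone and 52.8 and 64.6 TPM in co-culture, lower in both co-cultured samples (adjusted p = 0.752). Igfbp3, the main carrier of IGF-1, was at 2781 and 2710.5 TPM alone and 1838 and 2007 TPM in co-culture (adjusted p = 0.716). The Hedgehog list had a median of 0.00 over 13 tested.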
